A study of Mus musculus with 6 samples.

Results

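Metallothionein transcripts were measured in hypothalami from male mice of the C57BL/6J strain at 16 weeks of age. The members are the genes Mt1, Mt2 and Mt3, found as every probe that is not a control and whose transcript accession maps to one of them: 3 probes of 39429, 1 per gene and 1 spot per probe. All 3 members passed the filter on faint probes, as did 22863 genes in all. The family was chosen by measured values: it was picked because Mt3 was higher in both knockouts than in the control, so the comparisons with the control describe the members and do not test them. The 6 single-colour arrays were made from 3 groups of 2. TrspFF mice, the controls, carry floxed Trsp alleles (TrspFlox/Flox). Trsp-RIPKO mice carry the same floxed alleles with RIP-Cre (TrspFlox/Flox::RIP-Cre), and Trsp-Ins1KO mice carry them with Ins1-Cre (TrspFlox/Flox::Ins1-Cre). Trsp encodes the transfer RNA that brings selenocysteine to selenoproteins, and the series asks what oxidative stress in the hypothalamus does to leptin and insulin action. RIP-Cre uses a rat insulin promoter that is active in pancreatic beta cells and also in part of the hypothalamus, while Ins1-Cre is driven from the insulin gene Ins1 and is used as a beta cell driver. The controls carry floxed alleles without Cre, and no group carried Cre without floxed alleles. Nothing in the labels ties an array to an animal or a pool of animals, so errors measure the spread between arrays, which may be technical.

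Metallothioneins are small cysteine-rich proteins that hold zinc and copper ions in clusters of thiolate bonds. Zinc activates the metal-responsive transcription factor MTF-1, which binds metal response elements in the promoters of Mt1 and Mt2, and glucocorticoids, cytokines acting through STAT3 and oxidants also induce these genes. In the brain Mt1 and Mt2 are made mainly by astrocytes. Mt3, first described as growth inhibitory factor, is largely a gene of the nervous system, is found in neurons and astrocytes, and responds less to metals. Mt4 is known from stratified epithelium.

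The genes of the family lie side by side on chromosome 8, in the order Mt4, Mt3, Mt2, Mt1, between Bbs2 and Nup93 in the gene table. The 250 bases before the annotated start of each member are shown because the metal response element is the known control site of the family. The sequences are those of RefSeq on build GRCm38.p6, 5′ to 3′, and the capitals mark each match to the core of the metal response element (TGCACNC or TGCGCNC, on either strand).

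Mt1 (chr8:94178839-94179088, + strand): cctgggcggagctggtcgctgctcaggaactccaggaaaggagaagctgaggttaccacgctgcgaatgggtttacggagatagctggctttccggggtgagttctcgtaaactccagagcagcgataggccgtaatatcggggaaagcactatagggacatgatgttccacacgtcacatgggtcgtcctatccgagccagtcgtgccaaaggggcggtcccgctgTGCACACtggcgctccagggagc

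Mt2 (chr8:94172368-94172617, + strand): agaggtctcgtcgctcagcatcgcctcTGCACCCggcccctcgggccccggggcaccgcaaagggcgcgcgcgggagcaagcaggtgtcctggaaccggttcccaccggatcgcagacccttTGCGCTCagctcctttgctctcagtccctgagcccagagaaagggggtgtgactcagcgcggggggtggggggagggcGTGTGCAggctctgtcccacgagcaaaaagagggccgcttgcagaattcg

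Mt3 (chr8:94152357-94152606, + strand): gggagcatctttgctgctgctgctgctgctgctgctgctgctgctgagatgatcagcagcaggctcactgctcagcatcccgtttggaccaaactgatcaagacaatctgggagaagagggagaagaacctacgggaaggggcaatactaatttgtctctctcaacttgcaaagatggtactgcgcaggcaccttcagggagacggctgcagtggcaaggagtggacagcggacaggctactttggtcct

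In these windows the core matched 1 time before Mt1, 3 times before Mt2 and 0 times before Mt3. The same stretch before Mt4, which is no member here and is not shown, held 1 match. With the 50 bases after the annotated start included, the counts were 3 for Mt1, 4 for Mt2 and 1 for Mt3, and 25.7% of 32851 windows of that length in the promoter table held at least 1 match, with 1.97% holding at least 3. The letters of the antioxidant response element core (TGACNNNGC) occurred 1 time, before Mt2, as TGACTCAGC, against 12.4% of windows. None of the 3 windows held the letters TTCNNNGAA of a STAT site or the full palindrome of the glucocorticoid response element, which 8.3% and 0.00913% of windows held. A match is a run of letters and not a measured site. No match concerns this window alone, and annotated starts may differ from the start used in the hypothalamus.

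The deposited value table exchanges the knockouts' names relative to the raw scans. Over 39311 probes each of its columns matched 1 scan at r between 0.9999686 and 0.9999813, but its Trsp-RIPKO columns held the scans named Trsp-Ins1KO, and its Trsp-Ins1KO columns the other pair. The scans' names are used below. Under the table's names, each value given for one knockout belongs to the other, and the difference between the knockouts changes sign. Both TrspFF arrays share slide 1 and all 4 knockout arrays share slide 2, which was scanned separately, so slide and group cannot be told apart in any comparison with TrspFF. No probe was named Trsp, and the deletion was not checked here. The labelled tissue was checked with 14 hypothalamic marker genes: 13 passed the filter, Otp was well above background on 0 arrays, and the mean level of the 13 lay between 0.38 and 0.99 on every array. The level used throughout is log2 of the background-subtracted spot intensity minus the 75th percentile of its array, so that 0 equals that percentile; the percentile lay between 1391 and 2137 in intensity. A level is set only against the same probe on other arrays.

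Mt3 was higher on every knockout array than on either control array. Its intensity was 6764 and 8646 on the TrspFF arrays, 17259 and 23557 on the Trsp-RIPKO arrays, and 17496 and 19096 on the Trsp-Ins1KO arrays. As levels these were 2.28 and 2.33 (TrspFF), 3.22 and 3.46 (Trsp-RIPKO), and 3.33 and 3.31 (Trsp-Ins1KO). The control arrays lay close together, the Trsp-RIPKO arrays were the most spread, and both Trsp-Ins1KO arrays fell between them. The group means were 2.31 ± 0.0338 (SD, n = 2), 3.34 ± 0.17 and 3.32 ± 0.0187. Against TrspFF the difference was 1.03 (SE 0.11) in Trsp-RIPKO, 2.05-fold, and 1.01 (SE 0.11) in Trsp-Ins1KO, 2.02-fold. The smallest gap between a knockout and a control array was 0.89 for Trsp-RIPKO and 0.98 for Trsp-Ins1KO. In order of size the differences stood at place 197 and place 318 of 22863. These values chose the family and carry no test; both differences use the same 2 control arrays.

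Mt2 was also higher on all knockout arrays, by a smaller amount. Its intensity was 58276 and 76651 (TrspFF), 96572 and 116064 (Trsp-RIPKO), and 90949 and 118554 (Trsp-Ins1KO). The levels were 5.39 and 5.48, then 5.70 and 5.76, then 5.71 and 5.94. The knockout ranges overlapped each other and neither reached down to the control range. The spot of Trsp-RIPKO replicate 1 carried a flag for an unusual local background and none for the spot itself, and it was kept. The difference from TrspFF was 0.30 (SE 0.11), 1.23-fold, in Trsp-RIPKO and 0.39 (SE 0.11), 1.31-fold, in Trsp-Ins1KO. With quantile normalization the latter was 0.21.

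Mt1 had the smallest separation in Trsp-RIPKO. Its intensity was 95519 and 104611 (TrspFF), 137674 and 148858 (Trsp-RIPKO), and 148704 and 162579 (Trsp-Ins1KO). The levels were 6.10 and 5.93, then 6.21 and 6.12, then 6.42 and 6.40. The lower Trsp-RIPKO array exceeded the higher TrspFF array by 0.0206, less than the SD of the controls (0.12, n = 2), while the lower Trsp-Ins1KO array exceeded it by 0.29. The difference from TrspFF was 0.15 (SE 0.0987), 1.11-fold, in Trsp-RIPKO and 0.39 (SE 0.0987), 1.31-fold, in Trsp-Ins1KO. Leaving out TrspFF replicate 1 gave 0.24 in Trsp-RIPKO and leaving out TrspFF replicate 2 gave 0.0651, so either control array moves this difference by over 1.5 times. With median scaling it was 0.26, and with quantile normalization the difference in Trsp-Ins1KO was 0.22.

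**Figure D1:**
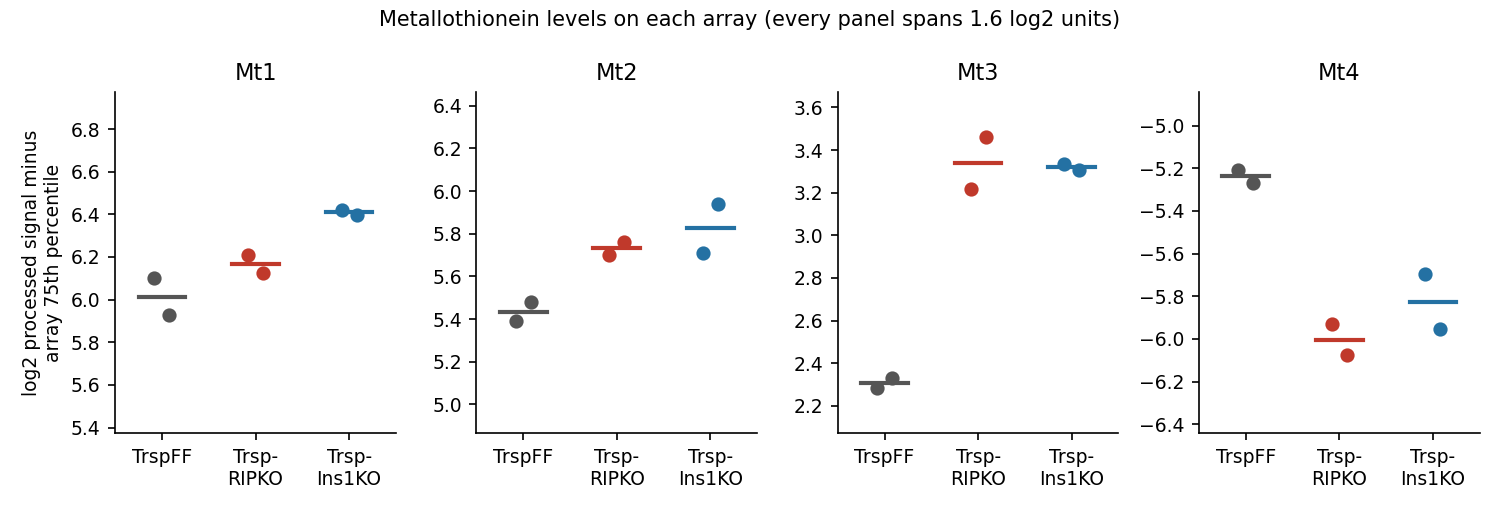
Level of Mt1, Mt2, Mt3 and Mt4 on each array (y axis, log2 processed signal minus the 75th percentile of the array; x axis, genotype); points are arrays and bars are group means (n = 2), and all panels have axes of equal length. For Mt3 the TrspFF arrays sit at 2.28 and 2.33 and the 4 knockout arrays between 3.22 and 3.46; Mt1 and Mt2 are separated by less, and Mt4 is lower on the knockout arrays.

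All 3 members had every knockout array above both control arrays, as did 16.9% of the genes tested; both arrays were above both controls for 28% of genes in Trsp-RIPKO and 31.7% in Trsp-Ins1KO. Calls were made by limma with Benjamini-Hochberg adjustment over all genes at 0.05. Those of the members against TrspFF are left out, because the values of Mt3 chose the family. Of all genes, 1.66% were called in Trsp-RIPKO (0.0962% higher, 1.56% lower), 1.82% in Trsp-Ins1KO (0.241% higher, 1.58% lower) and 0.0219% higher in both. These were 22 higher and 357 lower genes in Trsp-RIPKO and 55 and 361 in Trsp-Ins1KO; with normexp they were 73 and 354, and 194 and 397. The choice of the family by Mt3 also bears on the count of members above the controls, and nothing is read from that count. The differences of the members are set side by side as a description only, since the family was chosen for that of Mt3. The level of Mt3 minus that of Mt1 within an array moved by 0.88 from TrspFF to Trsp-RIPKO and by 0.62 to Trsp-Ins1KO, and Mt3 minus Mt2 moved by 0.74 and 0.62. Mt2 minus Mt1 moved by 0.15 and -0.0017, and its values in each knockout overlapped those in TrspFF. The shifts of Mt1 and Mt2 in Trsp-Ins1KO were thus of about the same size. Over the 6 arrays Pearson's r was 0.89 between Mt2 and Mt3, 0.72 between Mt1 and Mt2, and 0.70 between Mt1 and Mt3; over the 4 knockout arrays alone it was 0.0884, 0.36 and -0.35. All of these arrays share the 75th percentile scaling, and the correlation over 6 arrays rests on the gap between control and knockout arrays.

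**Figure D2:**
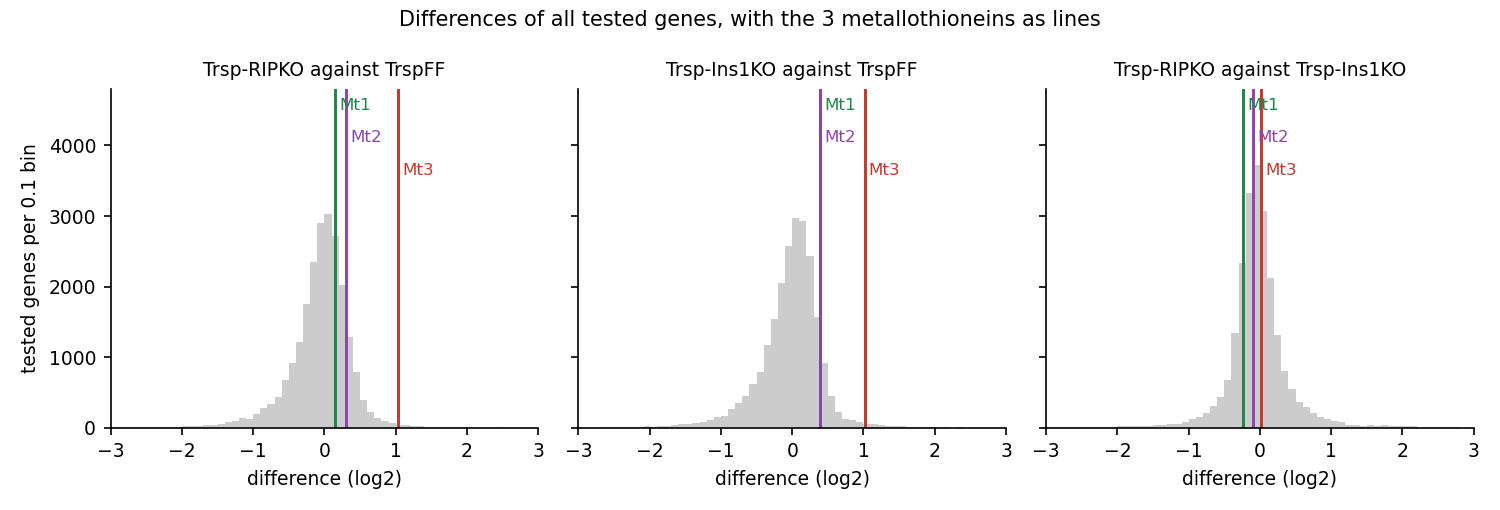
Differences of all 22863 tested genes in each comparison (x axis, log2; y axis, genes per bin of width 0.1), with a line at Mt1, Mt2 and Mt3; a few genes beyond the axis are not drawn. Mt3 lies in the upper tail of both comparisons with TrspFF (1.03 and 1.01) and near 0 between the knockouts (0.0190); in Trsp-Ins1KO against TrspFF the lines of Mt1 and Mt2 coincide at 0.39.

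The knockouts were then compared with each other, a comparison that was not used to choose the family and in which both groups share a slide. In it 0.0175% of genes were called, all lower in Trsp-RIPKO. None of the members was called. Mt3 differed by 0.0190 (Trsp-RIPKO minus Trsp-Ins1KO, SE 0.11, limma adjusted p = 0.929), with a 95% interval of -0.27 to 0.31. Mt2 differed by -0.0946 (SE 0.11, limma adjusted p = 0.639; interval -0.38 to 0.19). Mt1 was lower on both Trsp-RIPKO arrays than on either Trsp-Ins1KO array, as were 35.8% of all genes, with a difference of -0.24 (SE 0.0987, limma adjusted p = 0.276; interval -0.50 to 0.0138). With quantile normalization this difference was -0.0411 (limma adjusted p = 0.791). The interval of Mt3 leaves out a difference as large as that from TrspFF in either direction. For each member, differences between the knockouts that lie within its interval are not excluded.

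Mt4, the remaining gene of the cluster and no member here, is faint. Its intensity was 37.7 and 44.6 (TrspFF), 30.5 and 31.7 (Trsp-RIPKO), and 33.4 and 31.1 (Trsp-Ins1KO), and its spot was well above background on all 6 arrays. Both control arrays were above all 4 knockout arrays, and the share of all genes in that order was not counted. The difference was -0.77 (SE 0.12, limma adjusted p = 0.0615) in Trsp-RIPKO and -0.59 (SE 0.12, limma adjusted p = 0.0864) in Trsp-Ins1KO, neither past the threshold. With normexp background correction the differences were -0.23 and -0.25, and with probes required on all 6 arrays limma called the Trsp-RIPKO difference (-0.77, adjusted p = 0.0488).

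The other genes of the same stretch of chromosome 8 did not pass the limma threshold in any comparison; 8 of 9 listed neighbours, Mt4 among them, were tested. Slc12a3, a chloride cotransporter gene, was well above background on 0 arrays. Beside Mt4, Bbs2, a gene of the primary cilium, was at 0.18 in Trsp-RIPKO and 0.19 in Trsp-Ins1KO against TrspFF. Nup93, a nuclear pore gene on the other side, was at -0.21 and -0.27. The hydroxylase gene Ogfod1 was at -0.56 and -0.35, and Herpud1, which acts in degradation of misfolded proteins of the endoplasmic reticulum, at -0.38 and -0.25. Gnao1, a G protein subunit of neurons, was at -0.27 and -0.0982, and the messenger RNA processing factor Nudt21 at -0.0700 and 0.16. The median of the 8 was -0.24 in Trsp-RIPKO and -0.18 in Trsp-Ins1KO against -0.0144 and 0.0237 over all genes, so the higher levels of Mt1, Mt2 and Mt3 were not shared by most of their neighbours. At unadjusted limma p under 0.05, 3 and 2 of the 8 were lower and 0 higher. Such p values were common: 5475 and 5935 of all 22863 genes had them, in either direction.

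Genes that control zinc were described next, because zinc is the main inducer of the family. The list holds the factor Mtf1 and the zinc exporters (Slc30a) and importers (Slc39a). Of 25 listed genes 24 were tested, and 0 passed by limma in any comparison. At unadjusted limma p under 0.05, 1 was higher and 2 lower in Trsp-RIPKO, and 0 and 2 in Trsp-Ins1KO. Of all 22863 genes, 5475 and 5935 had such p in either direction. The median difference was 0.0276 and -0.0230, the latter turning to 0.0633 with median scaling. Slc30a2, an exporter, had levels of -3.99 and -4.08 (TrspFF), -4.67 and -4.63 (Trsp-RIPKO), and -4.69 and -4.26 (Trsp-Ins1KO), with differences of -0.62 and -0.44 (limma adjusted p = 0.124 and 0.178). Slc39a12, an importer of the brain, was at -0.30 and -0.0360 (0.143 and 0.817), and the importer gene Slc39a10 at 0.52 and 0.23 (0.167 and 0.432). Slc30a10, a transporter of manganese, was at 0.66 and -0.16 (0.226 and 0.735). The exporter gene Slc30a1 was at -0.0970 and -0.22 (0.481 and 0.179). None of these differences passed the threshold.

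For copper, the other metal bound by metallothioneins, 9 of 10 listed genes were tested and 0 passed by limma in any comparison; Cox17 did not pass the filter. At unadjusted limma p under 0.05, 2 were higher and 0 lower in Trsp-RIPKO, and 2 and 1 in Trsp-Ins1KO, beside 5475 and 5935 of all 22863 genes. The 1 lower gene was Slc31a1, at -0.40 in Trsp-Ins1KO (limma adjusted p = 0.153) and -0.0873 in Trsp-RIPKO (0.706). The list had 7 of 9 differences above 0 in each knockout, against 48.1% and 53.1% of all genes. Its medians were 0.19 and 0.20, against -0.0144 and 0.0237 over all genes. Atox1, the chaperone that hands copper to the copper pumps, had levels of 3.65 and 3.67 (TrspFF), 3.94 and 3.89 (Trsp-RIPKO), and 3.99 and 3.90 (Trsp-Ins1KO). Its 4 knockout arrays lay above both control arrays, as did those of 16.9% of the genes tested. The differences were 0.25 and 0.28 (limma adjusted p = 0.167 and 0.13). Commd1, a factor in copper export, was at 0.19 and 0.36 (0.238 and 0.0939), and Slc31a2, a copper transporter, at 0.40 and 0.22 (0.152 and 0.32). The copper pump Atp7a went both ways, at 0.25 in Trsp-RIPKO and -0.28 in Trsp-Ins1KO (0.295 and 0.235).

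None of the genes listed for other inducers of the family was called higher. Of 18 tested genes of the glucocorticoid response, 0 passed by limma in any comparison, with medians of -0.0197 in Trsp-RIPKO and -0.15 in Trsp-Ins1KO. At unadjusted limma p under 0.05, 0 were higher and 2 and 3 lower, beside 5475 and 5935 of all 22863 genes in either direction. Fkbp5, a chaperone of the glucocorticoid receptor that the hormone induces, had levels of 0.63 and 0.45 (TrspFF), 0.0970 and 0.0620 (Trsp-RIPKO), and 0.0744 and 0.16 (Trsp-Ins1KO). All 4 knockout arrays were below both control arrays, and the share of all genes in that order was not counted. The differences were -0.46 and -0.42 (limma adjusted p = 0.095 and 0.0979). Errfi1, an inhibitor of the EGF receptor, was at -0.32 in Trsp-RIPKO (0.189), the zinc finger gene Zbtb16 at -0.72 in Trsp-Ins1KO (0.115), and the clock gene Per1 at 0.48 in Trsp-RIPKO and -0.67 in Trsp-Ins1KO (0.176 in the latter).

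Of 12 tested genes of the STAT3 and cytokine response, 1 fell in Trsp-RIPKO and 0 passed in the other comparisons (1.56% of all genes were called lower in Trsp-RIPKO). Bcl3, a nuclear partner of NF-kB, fell from -3.79 and -3.50 on the TrspFF arrays to -4.70 and -4.66 on the Trsp-RIPKO arrays (difference -1.04, SE 0.12, limma adjusted p = 0.0368), and was at -0.62 in Trsp-Ins1KO (0.0754). The call ended in 11 of 16 alternatives, among them quantile normalization (-0.88, limma adjusted p = 0.0704) and normexp (-0.53, 0.081). At unadjusted limma p under 0.05, 2 were higher and 1 lower in Trsp-RIPKO, and 1 and 2 in Trsp-Ins1KO, beside 5475 and 5935 of all 22863 genes. The higher ones were Socs3, at 0.38 and 0.34 (limma adjusted p = 0.136 and 0.141), and in Trsp-RIPKO also Cebpb, at 0.30 (0.129). The lower ones were Bcl3 and in Trsp-Ins1KO also Osmr, at -0.71 (0.0718). The list medians were -0.0669 and -0.13; with median scaling the first turned to 0.0419, and that of the glucocorticoid list in Trsp-RIPKO to 0.0892.

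**Figure D3:**
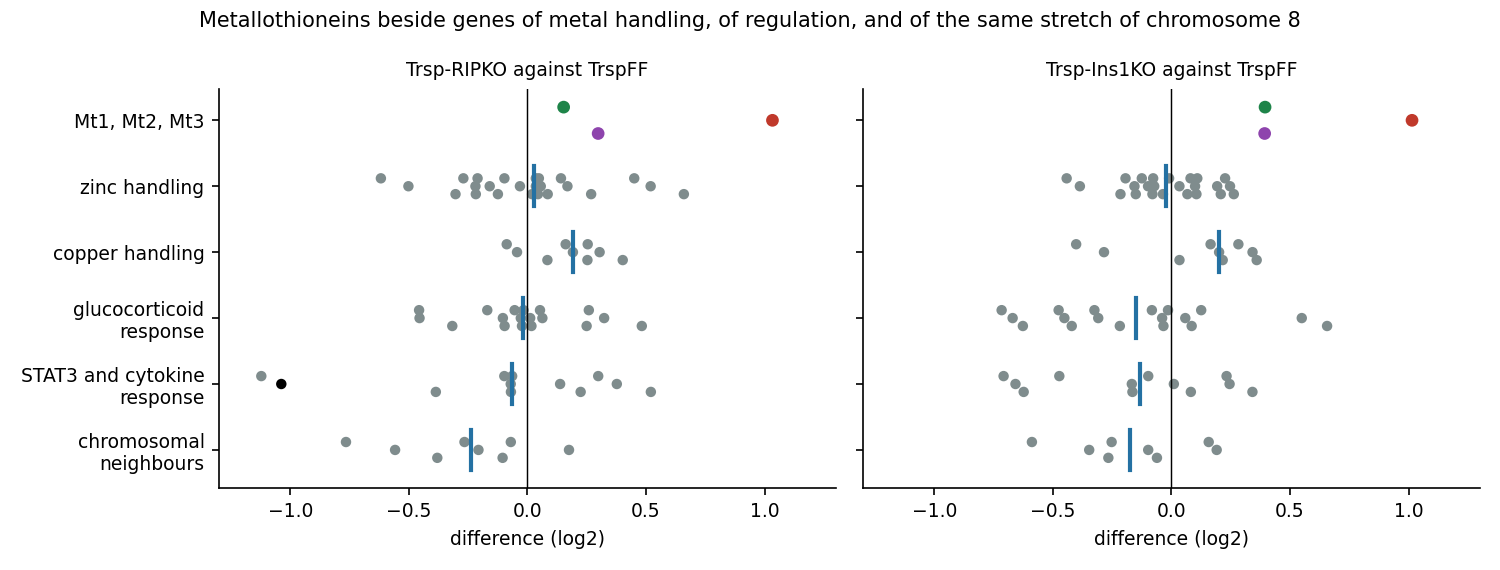
Differences against TrspFF (x axis, log2) of Mt1 (green), Mt2 (purple) and Mt3 (red) in the top row and of each tested gene of 5 lists below; black points passed limma at an adjusted p of 0.05, grey points did not, and blue bars are list medians. Mt3 at 1.03 and 1.01 lies to the right of every gene of the 5 lists, and Bcl3 is the single black point. The family was picked because Mt3 was higher in both knockouts, so nothing is read from the place of Mt3.

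Markers of cell types were set beside the members. The arrays hold bulk tissue, so fewer cells of a type and less RNA per cell cannot be told apart. Of 14 astrocyte markers, 4 were above and 10 below 0 in Trsp-RIPKO against TrspFF (median -0.0848), and 10 above and 4 below in Trsp-Ins1KO (median 0.0542). The summed level of the list was 8.27 and 8.15 (TrspFF), 8.23 and 8.18 (Trsp-RIPKO), and 8.55 and 8.51 (Trsp-Ins1KO). This sum weighs the brightest probes most, Aldoc and Ndrg2 among them; the mean level of the list was 2.94 and 2.89, then 2.83 and 2.81, then 2.98 and 2.99. Of 10 neuron markers, 5 were above and 5 below 0 in Trsp-RIPKO and 6 and 4 in Trsp-Ins1KO (medians -0.0098 and 0.0815). Their mean level was 4.17 and 4.15 (TrspFF), 4.24 and 4.20 (Trsp-RIPKO), and 4.23 and 4.29 (Trsp-Ins1KO). All 4 knockout arrays were thus above both control arrays, an order that 16.9% of single genes had. Over the 6 arrays this mean correlated with the level of Mt1 at r of 0.888, of Mt2 at 0.884 and of Mt3 at 0.75. For the mean of the astrocyte markers r was 0.526, 0.07 and -0.159. Other lists had r of similar or larger size. With Mt1 it was 0.936 for hypothalamic and -0.885 for oligodendrocyte markers, and with Mt3 it was -0.907 for the chromosomal neighbours. These values describe arrays that share their scaling and do not single out a cell type. By limma 0 of the astrocyte and neuron markers passed in any comparison. At unadjusted limma p under 0.05, 1 astrocyte marker was lower and 1 neuron marker higher in Trsp-RIPKO, and 2 of each were higher in Trsp-Ins1KO. Of all 22863 genes, 5475 and 5935 had such p, and 48.1% and 53.1% of differences were above 0.

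Trsp-Ins1KO replicate 2 stood apart in markers of tissue that borders the hypothalamus. The mean level of 11 choroid plexus markers was -2.55 there against -0.18 to 0.68 on the other arrays, and the transthyretin gene Ttr was at -0.95 against 5.39 to 6.31. Mt3 was 3.31 on that array and 3.33 on the other Trsp-Ins1KO array, and without that array its difference from TrspFF was 1.03. Mt1 without it was at 0.41, and Mt2 at 0.28 in place of 0.39. Hypothalamic markers were higher in Trsp-Ins1KO (12 of 13 above 0, median 0.61; mean levels 0.99 and 0.99 against 0.59 and 0.38 in TrspFF) and less so in Trsp-RIPKO (9 of 13, median 0.18; 0.61 and 0.40). Endothelial markers had a median of 0.43 in Trsp-RIPKO and -0.43 in Trsp-Ins1KO. Oligodendrocyte markers were lower in Trsp-Ins1KO (1 of 10 above 0, median -0.33) and evenly split in Trsp-RIPKO (5 of 10). The part of tissue composition in the differences of Mt1, Mt2 and Mt3 was not tested.

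**Figure D4:**
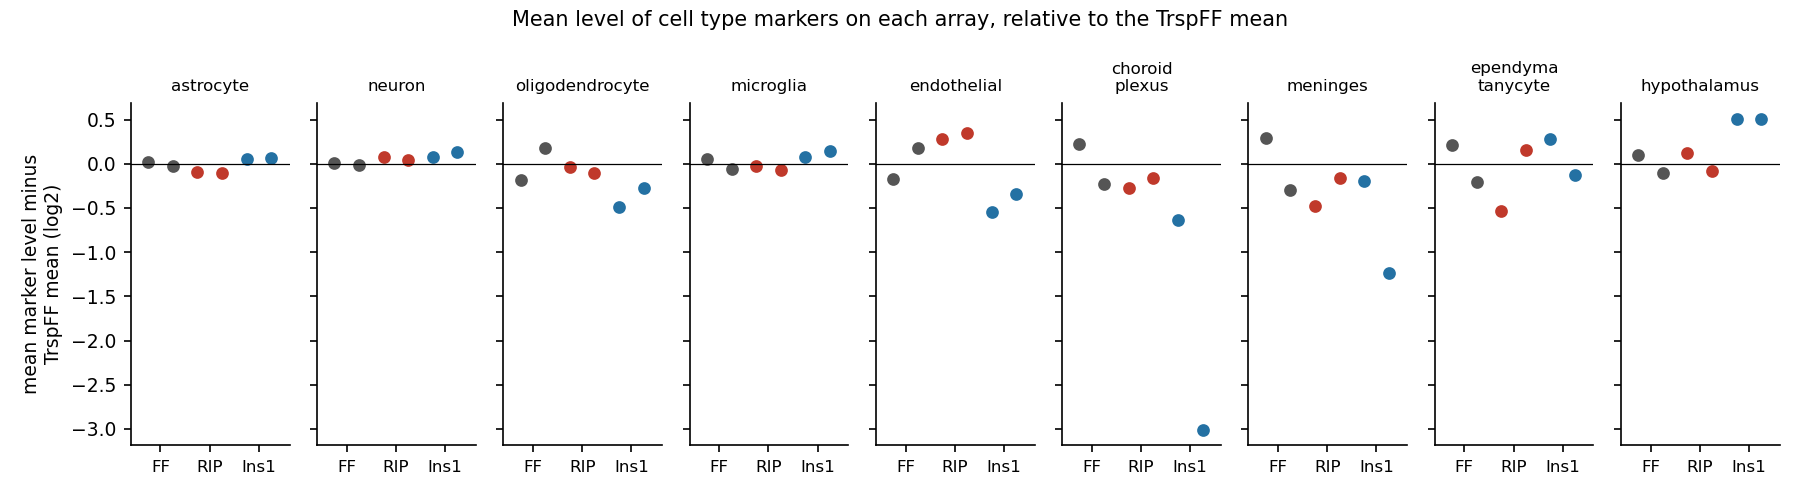
Mean level of the tested markers of 9 cell types or regions on each array (y axis, log2, relative to the mean of the TrspFF arrays; x axis, genotype, 2 arrays each, grey TrspFF, red Trsp-RIPKO, blue Trsp-Ins1KO). Astrocyte and neuron markers stay near 0, and Trsp-Ins1KO replicate 2 is the low point for choroid plexus and meningeal markers.

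The genes whose pattern over the 6 arrays was most like each member were sought among 6932 genes (6933 for Mt1) with a usual symbol whose levels spanned at least 0.5. The 5 most like Mt3 were Qrich1, Sncb (beta-synuclein, a protein of nerve terminals), Mvb12a (a subunit of the endosomal sorting machinery), Ankrd9 and the nuclease gene Snd1, with Pearson's r of 0.9915 to 0.9958. Their differences from TrspFF lay between 0.41 and 0.52, below those of Mt3. For Mt2 they were Gpkow, Slc17a6 (the vesicular glutamate transporter of many hypothalamic neurons), Gnas (the stimulatory G protein subunit), Zfp418 and Sfrp5 (a secreted Wnt inhibitor), with r of 0.981 to 0.9863. For Mt1 they were the cytokine gene Mif, Zcchc17, the ribosomal protein genes Rpl37a and Rpl38, and Bola2, which acts in iron-sulfur cluster assembly, with r of 0.9946 to 0.9994. None of these 15 genes passed by limma against TrspFF (smallest adjusted p 0.0538, Sfrp5), and r above 0.95 was reached by 116 genes for Mt3, 59 for Mt2 and 156 for Mt1, so these names are a description of 6 arrays scaled in the same way, with the control arrays on one slide and the knockout arrays on the other. Rpl37a, for example, was at 6.10 and 5.81 (TrspFF), 6.27 and 6.06 (Trsp-RIPKO), and 6.58 and 6.55 (Trsp-Ins1KO).

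**Figure D5:**
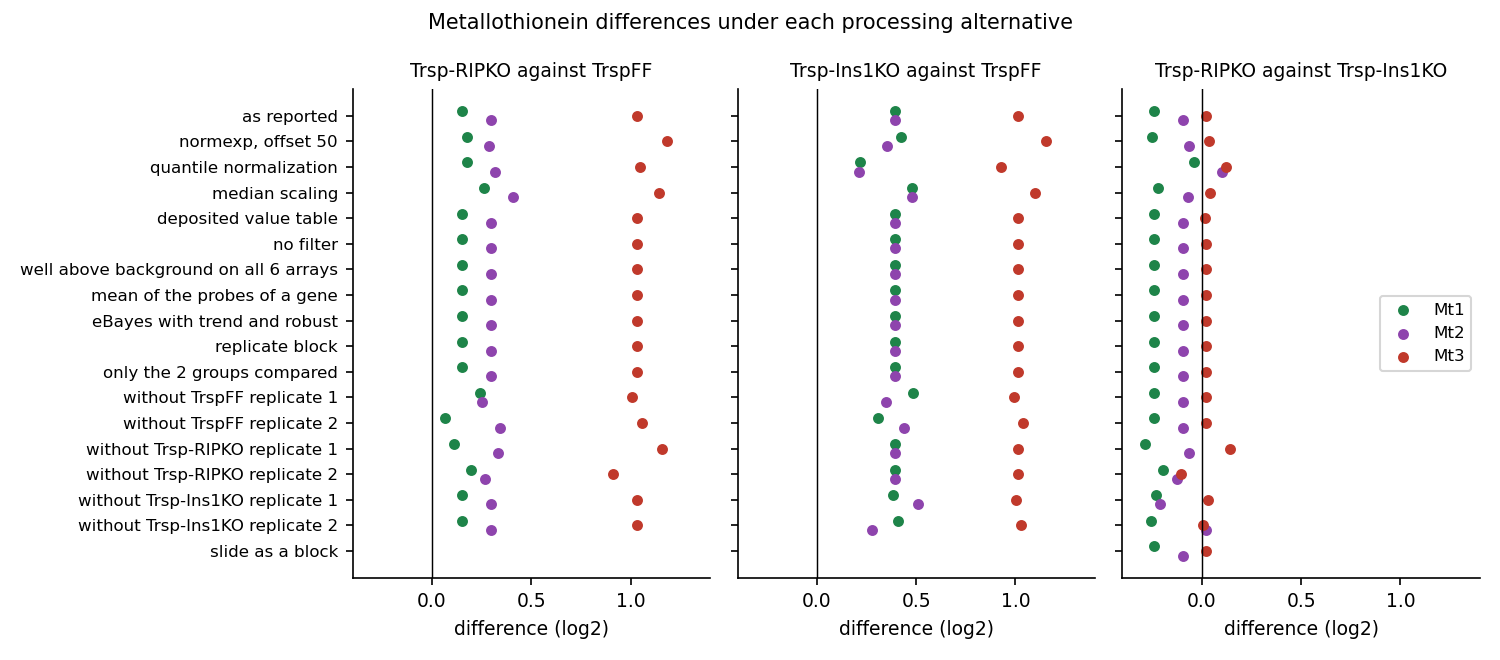
Difference of Mt1, Mt2 and Mt3 in each comparison (x axis, log2) under each processing alternative (y axis; the top line is the value as reported). Against TrspFF every point lies above 0, with Mt3 between 0.91 and 1.19, and many alternatives cannot move a difference. Between the knockouts Mt1 stays below 0 and Mt2 and Mt3 have points on both sides. The line for slide as a block repeats the reported values and is no separate fit.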

How the data were processed

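Total RNA from hypothalamus was labelled with Cy3 and hybridised to 1 array per sample. Per the file headers, Agilent Feature Extraction 10.7.3.1 made the deposited intensity values: the processed signal is background-subtracted and not scaled between arrays. The deposited value table holds log2 values centred per probe over the 6 arrays; neither the labels nor the table state its scaling, and its column medians lie between -0.0496 and 0.0508. Unflagged spots of a probe were averaged, and log2 processed signal minus the 75th percentile of the array was used. Transcript accessions named 26055 of 39429 probes (66.1%) through a RefSeq gene table of GRCm38.p6. A probe was kept where 1 group or more had it well above background on each of its arrays (28065 probes), and the brightest kept probe stood for a gene. Comparisons used R 4.3.3 with limma 3.58.1 (1 linear model over the 6 arrays, moderated by eBayes, Benjamini-Hochberg over 22863 genes at 0.05). Errors are moderated standard errors. Precision is limited by 2 arrays per group; 0 spots were saturated, and Feature Extraction gives each member spot an error of 10% of its signal.

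Members and lists were chosen with earlier results of these data known. Named genes are the members, members of a list past the threshold or otherwise the 4 with the smallest p, the neighbours (1 is not reported here), and the 5 genes most like each member. Probe sequences were not used, so cross-hybridisation between Mt1 and Mt2 was not tested. The fit was tried on data simulated with independent noise and no slide effect. That trial cannot show how slide bears on the comparisons with TrspFF. The alternatives in processing were normexp (offset 50), quantile normalization, median scaling, the value table, other filters and the mean of probes. Those in the fit were trend and robust, a 2-group fit, a replicate block and leaving out each array.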

Additional observations from a re-analysis of the deposited data

Results flagged for a closer look

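The copper pump gene Atp7a was on opposite sides of the controls in the knockouts: -0.72 and -0.40 (TrspFF), -0.31 and -0.31 (Trsp-RIPKO), and -0.84 and -0.85 (Trsp-Ins1KO), a difference between knockouts of 0.54 (SE 0.13, limma adjusted p = 0.263). The clock gene Per1 did likewise, at 2.38 and 2.97, then 3.18 and 3.14, then 1.80 and 2.21, a difference of 1.15 (SE 0.24, limma adjusted p = 0.263). Neither passed the threshold. Both were found among 89 named genes. The share of all genes in that order was not counted, so nothing is read from their number.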

How the results depend on the processing

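Against TrspFF, Mt1, Mt2 and Mt3 were higher under all 17 settings, the reported one included. Nothing is read from this count, since many settings cannot move a difference and a higher Mt3 chose the family. The filters and the mean of probes leave each member its 1 probe. Trend and robust, the replicate block, the 2 groups alone and an array left out of the third group change the error alone. Median scaling, which shifts all genes by 0.11 in Trsp-RIPKO, gave 0.26 (Mt1), 0.41 (Mt2) and 1.14 (Mt3) there and 0.48 (Mt1) in Trsp-Ins1KO. Normexp gave 1.19 and 1.15 for Mt3 in Trsp-RIPKO and Trsp-Ins1KO, and quantile normalization gave 0.22 (Mt1) and 0.21 (Mt2) in Trsp-Ins1KO. Leaving out 1 array moved Mt1 between 0.0651 and 0.24, Mt2 between 0.25 and 0.34 and Mt3 between 0.91 and 1.16 in Trsp-RIPKO, and Mt1 between 0.31 and 0.48, Mt2 between 0.28 and 0.51 and Mt3 between 0.99 and 1.04 in Trsp-Ins1KO. Between the knockouts Mt2 turned to 0.10 with quantile normalization (limma adjusted p = 0.746) and ranged from -0.21 to 0.0202 with 1 array left out (above 0 without Trsp-Ins1KO replicate 2), Mt3 ranged from -0.10 (without Trsp-RIPKO replicate 2) to 0.14, Mt1 from -0.29 to -0.20, and Mt4 turned to 0.0237 with normexp; limma adjusted p of the members ran from 0.209 to 0.988. The causes were not tested.

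Counts of genes called changed more: against 379 in Trsp-RIPKO and 416 in Trsp-Ins1KO, limma called 224 with median scaling (Trsp-RIPKO), 0 and 25 without a filter, 784 and 1240 with trend and robust, and 0 and 0 with the 2 groups alone, where 5475 and 5935 had unadjusted p under 0.05 in the fit of 6 arrays. Leaving out 1 array gave 0 to 495 and 0 to 511: in Trsp-RIPKO 28 without Trsp-RIPKO replicate 1, 495 without TrspFF replicate 2 and 0 without any other array, and in Trsp-Ins1KO 511 without TrspFF replicate 1, 1 without Trsp-Ins1KO replicate 2 and 0 without any other array. A lone array of a group is assumed there to vary like the other groups. Between the knockouts 4 became 1 with normexp, no filter or trend and robust, 2 with the stricter filter and 319 with the 2 groups alone, and 0 to 319 with 1 array left out. Arrays with the same replicate number were not paired by the labels, and their deviations correlated at -0.0250, 0.0890 and -0.0220. With the replicate block limma called 0, 0 and 0 genes. The member differences, which a block balanced over the groups cannot move, were 1.03, 0.30 and 0.15 (Mt3, Mt2, Mt1 in Trsp-RIPKO). The zinc list median was 0.14 with median scaling in Trsp-RIPKO. No fit with slide as a block was run. Slide and group coincide in each comparison with TrspFF, and both knockouts share 1 slide.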
